A study of Mus musculus with 3530 samples.

Results

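The CREB family and its coactivators were followed across single neurons of the mouse medial prefrontal cortex. The 9 genes were taken by name from the deposited count table, which holds 23354 genes once the reporter transgene is set aside. They are the transcription factors Creb1, Crem and Atf1, the coactivators Crtc1, Crtc2, Crtc3, Crebbp and Ep300, and the kinase Sik1. The choice was by family and name, made with earlier results of these data known. All 9 were found in the table and passed the filter on low counts in every comparison below.

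The data are 3530 cells dissociated with papain and prepared on plates by Smart-seq2, which amplifies whole transcripts of single cells. By the study's naming, the mice carry TRAP2, a recombinase made in active cells that works while tamoxifen is present, and Ai14, which makes tdTomato for good once the recombinase has acted. Both alleles are shared by all groups, and the labels give neither ages nor the schedule of training, tamoxifen and recall. There are 435 cells of the Homecage condition, 841 of Fear-Only, 912 of Context-Only and 1342 of Fear-Recall, from 5 animals each, and the animal is the replicate throughout. Titles name a sorting gate, pos (1806 cells) or neg (779 cells), for mouse numbers 2 to 4, and 1 plate of 96 cells carries both gate names. The other 849 cells have no gate name. Reads per cell ran from 100002 to 6840943, with a median of 813078. Clusters were called excitatory-neuron-like (2326 cells) or inhibitory-neuron-like (1204 cells) from marker genes, and these are called excitatory and inhibitory neurons here. The 9 genes were left out of the genes that formed the clusters. Homecage animal 1 had 1 cell and enters no sum, so at most 19 animals are compared.

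CREB1, CREM and ATF1 bind as pairs to the cAMP response element, a short palindromic DNA motif in the promoters of many activity-regulated genes. Phosphorylation by kinases downstream of cAMP and calcium lets them recruit the acetyltransferases CBP (Crebbp) and p300 (Ep300). The CRTC proteins are a second input: SIK kinases hold them in the cytoplasm, calcineurin releases them, and in the nucleus they join CREB on the promoter. Crem and Sik1 are themselves targets of CREB, and their products, the repressor ICER and the kinase SIK1, act against the pathway. Long-lasting memory is a classic setting for CREB. ICER comes from an internal promoter of Crem, and the table gives 1 count per gene, so ICER and full-length Crem cannot be told apart in these data.

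The motif was looked up in RefSeq promoters of GRCm38.p6, each 300 bases long, from 250 before to 50 after the start. Promoters were matched for 6 of the 9 genes, the others being Crem, Crtc2 and Sik1. The 8-base element TGACGTCA, which reads the same on both strands, was in 0 of these 6 and in 2.03% of 27025 gene symbols with a promoter in the table. Its 5-base core TGACG, searched on both strands and contained in the 8-base element, was in 1 of the 6 (Atf1) and in 23.05% of all symbols. Of a list of known CREB target genes, 31 had a promoter, 6 of these (19.4%) with the 8-base element and 25 (80.6%) with the core. That list was picked for being CREB targets, so its shares are a description and not an independent test of the motif. A gene with several promoters counted if any of them held the motif. The sequences below show the core of Atf1, the element of Scg2 and the cores of Vip and Nr4a1, the target genes whose levels are described further on, with Sst as the gene in which the element is best known. Capitals mark the motif, and each stretch is read on the gene's own strand. A match describes the letters only and shows no binding.
Atf1, chr15:100227753-100227789, plus strand: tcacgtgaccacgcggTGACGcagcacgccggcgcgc
Scg2, chr1:79440071-79440110, minus strand: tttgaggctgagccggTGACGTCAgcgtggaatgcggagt
Sst, chr16:23890869-23890908, minus strand: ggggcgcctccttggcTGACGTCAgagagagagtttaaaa
Vip, chr10:5639123-5639159, plus strand: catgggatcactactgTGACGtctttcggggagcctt
Nr4a1, chr15:101266790-101266826, plus strand: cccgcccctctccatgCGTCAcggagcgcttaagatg
In Nr4a1 the core lies on the opposite strand and so reads CGTCA, and 3 further cores lie upstream of the one shown. The Scg2 element begins 68 bases before the start, the Sst element 48 and the Vip core 79.

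Levels of different genes were compared per kilobase of exon, as CPM (reads scaled to the library total) of an animal's summed reads divided by the length of the gene's merged exons in GENCODE vM21. Crebbp was highest, at 14.2 ± 5.05 CPM per kb (SD, n = 19 animals). Crem followed at 10.5 ± 3.15, and Crtc1 had a mean of 10.5 ± 2.25. The order of these 3 was not stable between animals, since Crebbp was above Crem in 11 of 19 and Crem above Crtc1 in 10 of 19. All 19 animals had more Crtc1 than Atf1, the next gene in order at 2.82 ± 1.41. The remaining means were 2.34 ± 0.796 for Crtc2, 1.97 ± 1.01 for Ep300, 1.64 ± 0.782 for Creb1, 1.63 ± 1.21 for Sik1 and 0.782 ± 0.544 for Crtc3. From Atf1 down to Sik1, each gene was above the next in only 10 to 13 of 19 animals, and Sik1 was above Crtc3 in 15. By these means Crem was the leading factor of the family, Crtc1 the leading CRTC and Crebbp the leading acetyltransferase.

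The genes also differed in how their reads were spread over cells. At least 1 Crebbp read was found in 93.2% of cells and at least 1 Crtc1 read in 78.5%, against 59.7% for Crem, 56.2% for Ep300, 42% for Creb1 and 34.4% for Sik1. The lowest shares were those of Crtc2 (29.9%), Atf1 (23.1%) and Crtc3 (22.8%). The tenth of cells with the highest level (353 cells) held 26.1% of all Crebbp CPM and 33.8% of Crtc1, but 82.6% of Sik1, 84.9% of Atf1 and 88.3% of Crtc3. After thinning to 100000 reads per cell, 16.6% of cells held an Atf1 read, 14.8% a Crtc3 read and 18.6% a Sik1 read.

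In GENCODE vM21 (GRCm38), Creb1 lies on chr1:64532645-64604548 (plus strand), Atf1 on chr15:100227819-100261244 (plus), Crtc1 on chr8:70382355-70439579 (minus) and Crtc2 on chr3:90254163-90264125 (plus). Crtc3 lies on chr7:80586627-80688877 (minus), Crebbp on chr16:4081328-4213997 (minus), Ep300 on chr15:81585351-81652077 (plus) and Sik1 on chr17:31844250-31855804 (minus). Crem, Crtc3, Crebbp and Ep300 overlap predicted genes or small RNAs there, and the sources do not state whether counting used strand, so their counts could hold reads of those partners.

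Excitatory and inhibitory neurons differed in a coactivator and in the kinase that restrains it. Crtc1 was higher in excitatory neurons and Sik1 was lower in them, each in 17 of 17 animals with 10 or more cells of each class, and 11.8% of all genes differed one way in every animal. EdgeR's quasi-likelihood test, with the animal as a block, called 41% of 16138 genes here at an adjusted p of 0.05, and the 2 of 9 members called are to be read against that share.

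Crtc1, which carries calcium and cAMP signals to CREB in neurons, had 70.1, 130.4 and 226.2 CPM in excitatory neurons (lowest, median and highest of 17 animals) and 34.9, 70.5 and 117.9 CPM in inhibitory neurons. The ranges of the 2 classes overlap, though each animal had more in its excitatory neurons. The smallest log2 ratio within an animal was 0.069, which is nearly even. Its log2 fold change was 0.91 (SE 0.122, edgeR adjusted p = 4.2e-06). The share of cells with a Crtc1 read was 89.3% of excitatory and 57.7% of inhibitory neurons, and 86.3% and 52.3% when every cell was thinned to 100000 reads. Crtc2 and Crtc3, its paralogs, did not pass, with log2 fold changes of 0.48 (SE 0.253) and -0.37 (SE 0.452).

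Sik1, which phosphorylates CRTC proteins, had 0.93, 3.6 and 6.46 CPM in excitatory neurons and 3.58, 13.7 and 73.9 CPM in inhibitory neurons. The highest inhibitory value was that of Homecage 5, followed by Context-Only 5 with 34.1 CPM. The log2 fold change was -2.24 (SE 0.238, edgeR adjusted p = 1.9e-07). Thinned to 100000 reads, 12.7% of excitatory and 30.1% of inhibitory neurons held a Sik1 read, although inhibitory neurons had fewer genes per cell (median 5508 against 7265.5).

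None of the 3 transcription factors passed between the classes with edgeR. Creb1 had a log2 fold change of 0.30 (SE 0.207), Crem of -0.11 (SE 0.108) and Atf1 of 0.81 (SE 0.371, adjusted p = 0.0891). Atf1 was higher in excitatory neurons in 14 of 17 animals. With DESeq2, which called 48.9% of all genes, Atf1 also passed (adjusted p = 0.024). The acetyltransferases were close to even, at -0.06 (SE 0.062) for Crebbp and -0.10 (SE 0.136) for Ep300.

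**Figure D1:**
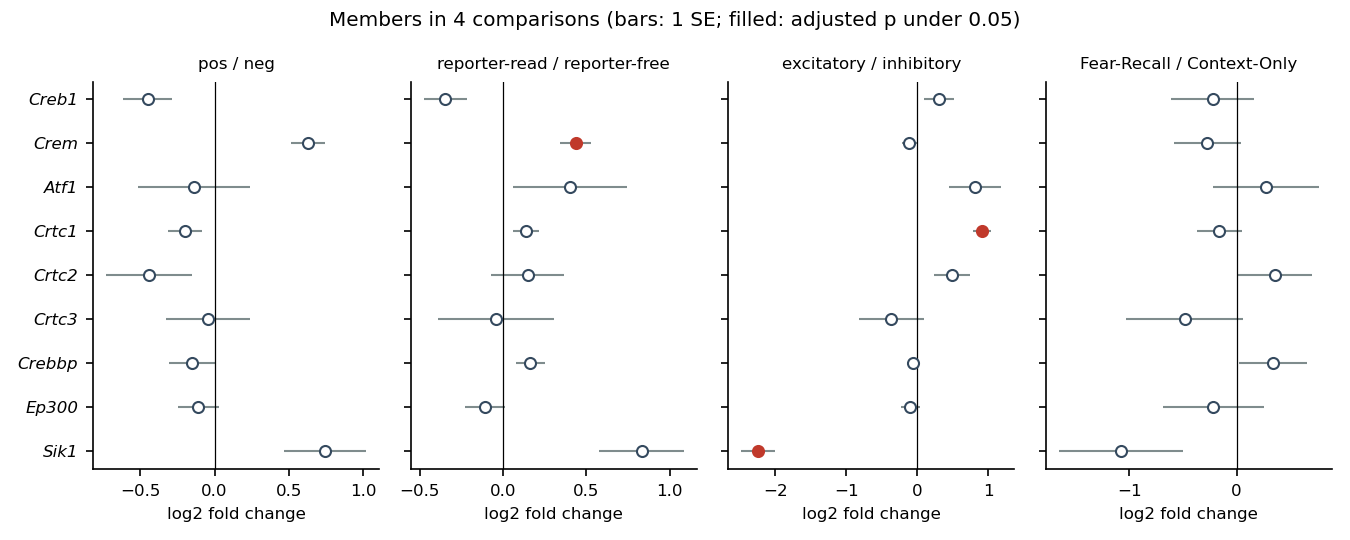
Log2 fold changes of the 9 genes with bars of 1 SE in 4 comparisons of summed counts per animal: pos against neg gate, cells with against cells without a reporter read, excitatory against inhibitory neurons, and Fear-Recall against Context-Only over all gates. Filled points passed an adjusted p of 0.05, which Crem did with the reporter (0.44) and Crtc1 (0.91) and Sik1 (-2.24) did between neuron classes.

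Within the classes, clusters were named by markers, and the levels below are CPM of an animal's summed cells where it had 10 or more, without TMM scaling, given as a description. Sik1 had its highest means in inhibitory neurons with Vip or Sncg markers. Vip neurons had 25.6 ± 28.6 CPM (SD, n = 14 animals), with a median of 16.7 and values of 113.8 CPM in Homecage 5 and 56.6 in Context-Only 5. Without those 2 animals their mean was 15.7 ± 8.23. Neurons with Sncg markers had 17.3 ± 12 (n = 8) and a median of 14.3, within the range of Vip neurons. Neurons with Sst markers had 6.65 ± 4.86 (n = 8) and neurogliaform-like Ndnf neurons had 3.6 ± 2.13 (n = 3). Means of the excitatory groups ran from 1.64 in near-projecting-like neurons to 4.37 in layer 6 corticothalamic-like neurons. The ranges over animals of neighbours in this order overlapped.

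Crtc1 had another order. Upper-layer-like neurons had 225.2 ± 85.2 CPM (n = 3, mean 176.8 without the highest animal) and layer 6 intratelencephalic-like neurons 193.1 ± 50.7 (n = 9). Middle-layer-like neurons followed with 137.9 ± 28.1 (n = 14), layer 6 corticothalamic-like with 117.1 ± 28.7 (n = 17) and layer 5 subcortical-like with 109.1 ± 23.1 (n = 5). Near-projecting-like neurons were the excitatory group with the least, 77.1 ± 22.1 (n = 11), below Ndnf-like (97.1 ± 17.7, n = 3) and Vip-like neurons (87.8 ± 36.2, n = 14). Sncg-like (60.4 ± 32.8, n = 8) and Sst-like neurons (57.5 ± 21.4, n = 8) had the lowest means of the named groups. Neighbours in this order overlapped in every case.

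Crem was spread more evenly. Its means ran from 38.1 ± 19.5 CPM in upper-layer-like neurons (n = 3) to 74.2 ± 26.9 in layer 6 corticothalamic-like (n = 17) and 82.1 ± 40.5 in Vip-like neurons (n = 14). Crebbp ran from 191.7 ± 78.9 in layer 6 corticothalamic-like to 342.3 ± 50.02 in Ndnf-like neurons (n = 3). Those 3 animals were Fear-Recall 2, Fear-Recall 3 and Fear-Only 3. Over all their cells they had 267.2, 313.3 and 336.1 CPM of Crebbp (TMM-scaled), the highest of the 19 animals. The part of this in the Crebbp range was not tested. Atf1 had its highest mean in layer 5 subcortical-like neurons (20.9 ± 19.9, n = 5), where 1 animal had 55.9 CPM. Without that animal the mean was 12.2 ± 4.02, below the 12.9 ± 8.14 of middle-layer-like neurons (n = 14). Creb1 was highest in middle-layer-like neurons (28 ± 12.7, n = 14), with a spread that overlaps its neighbours. An unnamed inhibitory cluster with a median of 2429 genes per cell had the least Crtc1 (25.2 ± 22.9, n = 4), Crebbp (98.8 ± 48.1) and Crtc2 (1.16 ± 1.47). It also had the least Atf1 (0.0253 ± 0.0506) and Crtc3 (1.78 ± 3.1), but its Creb1 mean was 26.3 ± 11.6. All 4 of its animals were numbered 2. Pvalb-like neurons (51 cells) reached 10 cells in no animal.

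**Figure D2:**
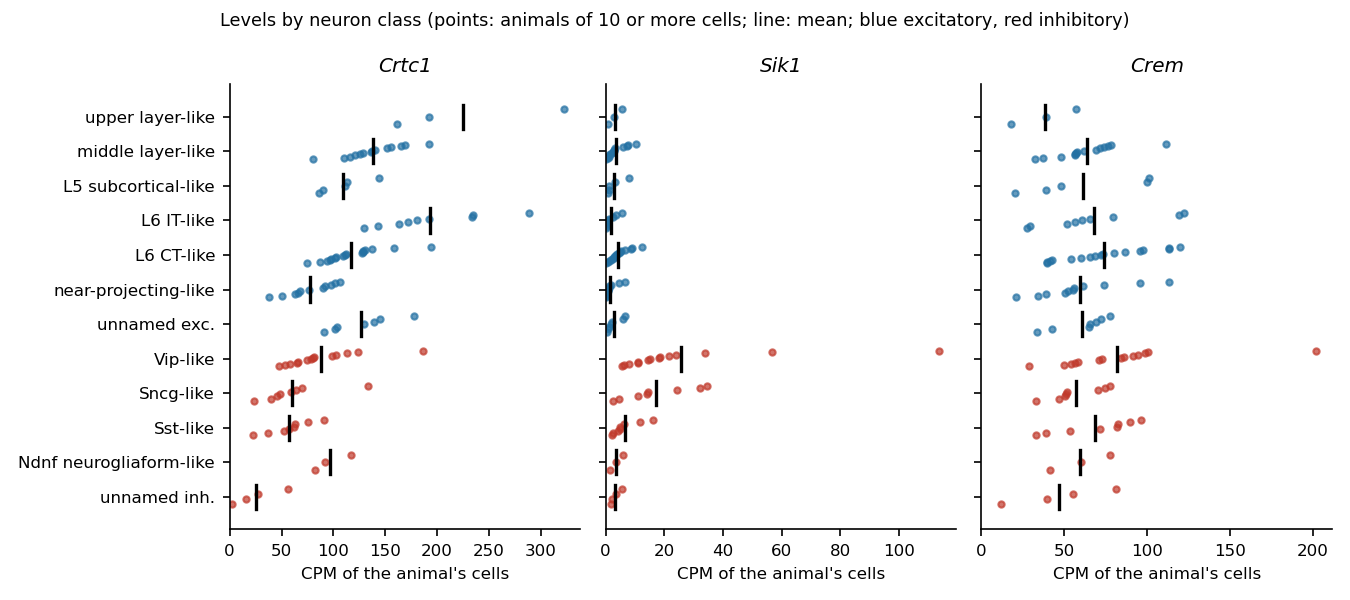
Level of Crtc1, Sik1 and Crem (CPM of an animal's summed cells, x axes) in each group of neurons (y axis), each point an animal with 10 or more such cells and each line the mean. Sik1 has its highest means in Vip-like (25.6) and Sncg-like neurons (17.3), Crtc1 in upper-layer-like neurons (mean 225.2), and Crem varies less between groups.

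The pos gate was compared with the neg gate of the same animal, in 8 animals (16 sums), to ask how cells sorted for the reporter differ from their neighbours. A reporter read was found in 68.3% ± 26.5 of pos cells (SD, n = 8, from 23.5% to 96.9%) and in 9.63% ± 2.01 of neg cells. Crem and Sik1 were higher and Creb1 lower in the pos gate of 8 of 8 animals, and 3.29% of all genes differed one way in every animal. With edgeR no member passed an adjusted p of 0.05, and 3 had an unadjusted p under 0.05. Of all 17752 genes tested, 0.287% were called and 1880 had an unadjusted p under 0.05. DESeq2 called 3.63% of all genes and 1 of the 9 members, Crem.

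Crem had 36.04, 45.3 and 83.8 CPM in the neg gate (lowest, median and highest of 8 animals) and 57.9, 75.7 and 92.8 CPM in the pos gate. The ranges overlap, with Context-Only 2 and 3 high in both gates, and the smallest ratio was that of Context-Only 3. The log2 fold change was 0.63 (SE 0.116), with an adjusted p of 0.0631 in edgeR and 0.000165 in DESeq2. Over the other settings and left-out animals it stayed between 0.51 and 0.70.

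Sik1 had 1.05, 4.15 and 6.63 CPM in the neg gate and 2.58, 7.37 and 11.6 CPM in the pos gate. In Homecage 2 the gates were nearly even, at 2.54 and 2.58 CPM. The log2 fold change was 0.75 (SE 0.275, edgeR adjusted p = 0.382). Inhibitory neurons, which have more Sik1, made up 40.7% ± 5.87 of pos and 21.4% ± 3.65 of neg cells (SD, n = 8), and Vip-like neurons 17% ± 8.79 and 7.68% ± 3.01. Within the classes Sik1 was higher in the pos gate in only 5 of 8 animals for excitatory and 4 of 7 for inhibitory neurons.

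Creb1, the founding member of the family, had 15.6, 21 and 38.2 CPM in the neg gate and 11.3, 17.3 and 24.03 CPM in the pos gate. Its log2 fold change was -0.45 (SE 0.164, edgeR adjusted p = 0.376). The difference was largest in Context-Only 2 (38.2 against 18.4 CPM) and within 2 CPM in Context-Only 4, Fear-Only 3 and Fear-Recall 2. Over all neurons Crem and Creb1 thus had opposite signs in each of the 8 animals. Within the classes Creb1 was lower in the pos gate in 7 of 8 animals for excitatory neurons. For inhibitory neurons it was lower in only 3 of 7 and higher in 4.

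The other members differed less. The log2 fold changes were -0.44 for Crtc2 (SE 0.289), -0.20 for Crtc1 (SE 0.114), -0.15 for Crebbp, -0.14 for Atf1, -0.11 for Ep300 and -0.04 for Crtc3. The signs of Atf1, Crtc3 and Ep300 turned under some settings, as given with the dependence on processing. The median of the 9 was -0.14, beside 0.02 over all genes tested.

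Among excitatory neurons alone (8 animals) Crem was again higher in the pos gate in 8 of 8, as were 1.07% of all genes. It had 36.1, 41.9 and 75.1 CPM in the neg gate and 61.3, 77.1 and 104.9 CPM in the pos gate, a log2 fold change of 0.77 (SE 0.126). The adjusted p was 0.150 in edgeR, in which 0.0358% of 16773 genes were called, and 5.41e-05 in DESeq2, which called 1.43%. Creb1 had the next smallest p, at -0.45 (SE 0.213, adjusted p = 0.698). Among inhibitory neurons (7 animals, 14354 genes) 0% of genes were called by edgeR, 1126 had an unadjusted p under 0.05 and DESeq2 called 1.86%. The members of smallest p there were Crtc1 (-0.38, SE 0.230) and Ep300 (-0.71, SE 0.435), and Crem was higher in 5 of 7 animals (0.35). The median of all genes in that comparison was 0.19.

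The gate difference was then compared between the classes. Of 17907 genes 0% were called by edgeR, 964 had an unadjusted p under 0.05 and DESeq2 called 0.81%. Ep300 differed most among the members, by 0.96 (SE 0.404, unadjusted p = 0.026, adjusted p = 0.877), and Crem by 0.42 (SE 0.291, adjusted p = 1). A different response of the 2 classes was therefore not shown for any member.

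The gates also differed in what else they held. Near-projecting-like neurons were 4.83% ± 1.48 of pos and 10.8% ± 4.16 of neg cells. Median genes per cell were 6348 and 7202, and clusters of few genes per cell held 11.6% ± 16.5 of pos and 5.82% ± 6.27 of neg cells. Without those clusters Crem had a log2 fold change of 0.63 and Sik1 of 0.77. Summed markers of other cell types overlapped between the gates: 10 astrocyte genes had 556 to 644 CPM in the pos and 416 to 687 in the neg gate, 8 oligodendrocyte genes 70.1 to 237.9 and 62.4 to 254.5, and 10 microglial genes 19.6 to 49.6 and 18.6 to 82. The part of these differences in the gate results was not tested.

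All animals with 10 or more cells with a reporter read and 10 or more without were compared next, 16 animals in all, which adds those without gate names. A cell without a read can still carry the reporter, since a read can be missed. Crem was the member that passed. It had 26.5, 56.4 and 92.3 CPM in reporter-free cells (lowest, median and highest) and 40.4, 76.3 and 109.2 CPM in cells with a reporter read.

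Crem was higher with the reporter in 14 of 16 animals, the exceptions being Context-Only 3 and Fear-Recall 4. The log2 fold change was 0.44 (SE 0.095, edgeR adjusted p = 0.0264), and edgeR called 2.24% of 16372 genes. The call was narrow: the adjusted p was 0.0502 without Fear-Only 2, 0.0520 without Homecage 5 and 0.75 without the animal as a block. In excitatory neurons alone the log2 fold change was 0.43 (adjusted p = 0.0527) and in inhibitory neurons alone 0.35 (adjusted p = 0.765). Animals without a named gate gave 0.40 (adjusted p = 0.21), and cells of the pos and neg gates 0.45 (adjusted p = 0.541). The cells overlap largely with those of the gate comparison, so these 2 results do not stand apart from each other.

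Sik1 had 0.80, 4.34 and 12.5 CPM without and 1.99, 7.93 and 46.7 CPM with the reporter, with the highest values in Homecage 5 and Context-Only 5 (34.5 CPM). It was higher with the reporter in 13 of 16 animals. The log2 fold change of 0.83 (SE 0.253) had an adjusted p of 0.0928 in edgeR and 0.00928 in DESeq2, which called 6.18% of genes and 2 of the 9 members. Creb1 was lower with the reporter in 13 of 16 animals, at -0.35 (SE 0.132, edgeR adjusted p = 0.187). The other 6 members had log2 fold changes that did not pass with either tool, and the median of the 9 was 0.15 beside -0.03 over all genes.

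The inhibitory share was 34.7% ± 11.5 with and 32.6% ± 7.92 without a reporter read (SD, n = 16), nearer to even than between the gates. Vip-like neurons were 18.8% ± 8.75 and 12.2% ± 6.95. Median genes per cell were 6776 and 6072, and low-gene clusters held 1.53% ± 3.03 and 6.98% ± 10.1. Without those clusters Crem still had 0.44 (adjusted p = 0.0432), and with every cell thinned 0.40 (adjusted p = 0.0123). The part of the Vip-like share was not tested.

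Only 3 groups of neurons had enough cells of both kinds in several animals. In layer 6 corticothalamic-like neurons (9 animals) Crem was 92.3 ± 27.6 CPM with and 55.9 ± 16.1 without a reporter read, and higher in 8 of 9. In middle-layer-like neurons (5 animals) it was 77.6 ± 19 and 58.6 ± 6.29, higher in 5 of 5. In Vip-like neurons (5 animals) it was 67.1 ± 19.7 and 80.8 ± 47.2, higher in 1 of 5. Creb1 was higher with the reporter in 2 of 9 animals in layer 6 corticothalamic-like neurons (11.4 against 18 CPM). For middle-layer-like neurons this was 1 of 5 and for Vip-like neurons 3 of 5. Sik1 in Vip-like neurons was 20.4 ± 15.9 with and 8.42 ± 6.86 without, higher in 4 of 5. In layer 6 corticothalamic-like neurons Sik1 was 6.8 ± 7.69 and 3.03 ± 2.39, higher in 6 of 9. In middle-layer-like neurons it was 2.2 ± 1.66 and 3.48 ± 3.22, higher in only 2 of 5. These values are a description, and a difference between the groups of neurons was not tested.

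**Figure D3:**
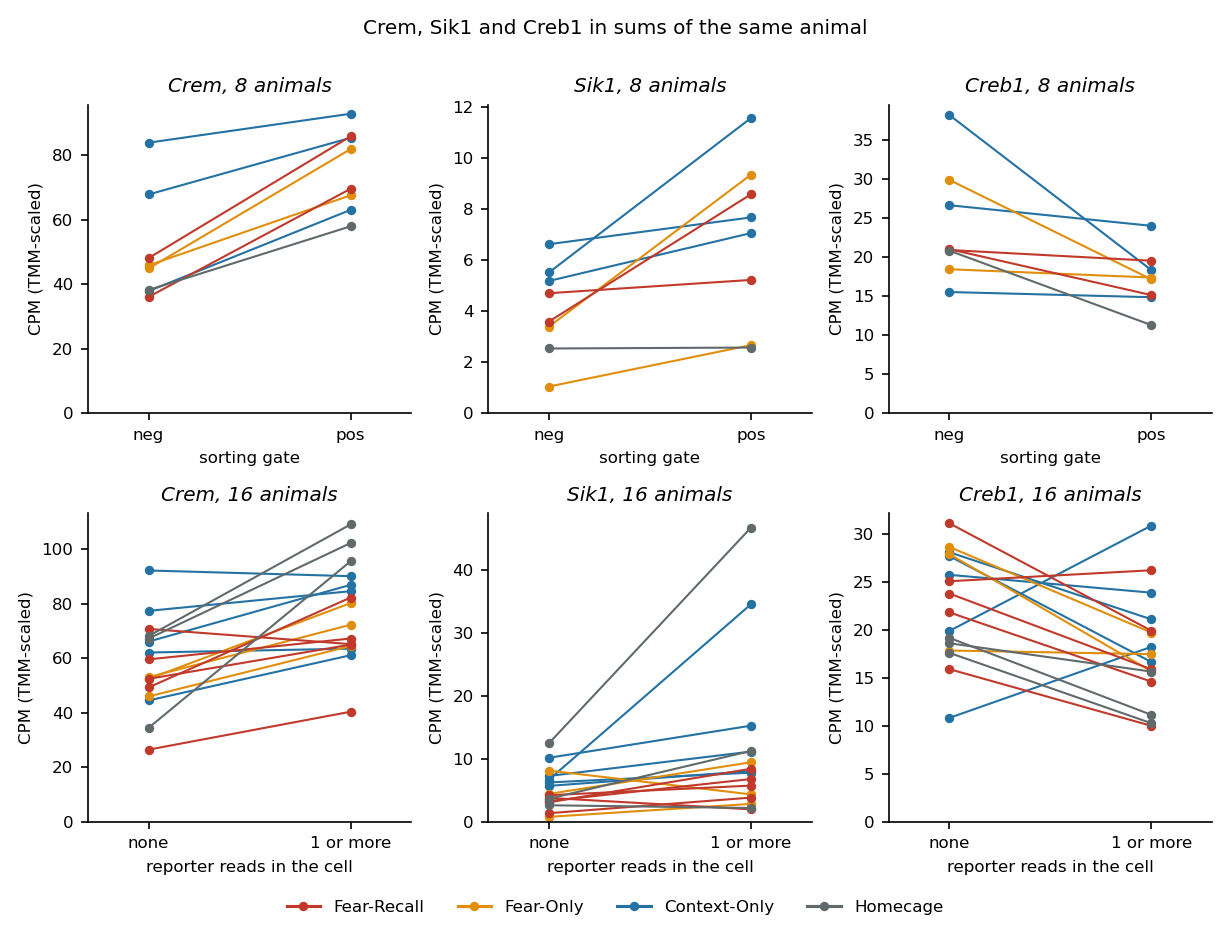
Crem, Sik1 and Creb1 (TMM-scaled CPM) in paired sums of the same animal, each line an animal coloured by condition: neg and pos gate in the upper row, cells with no and with 1 or more reporter reads in the lower row. Crem is higher in the pos gate in 8 of 8 animals and with the reporter in 14 of 16, and Creb1 is lower in 8 of 8 and 13 of 16.

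The conditions were compared within the pos gate (Fear-Recall 3 animals, Fear-Only 2, Context-Only 3) and over all cells of each animal (5, 5, 5 and 4 with Homecage), to ask whether fear training and recall moved these genes. No member passed in any of these comparisons. In the pos gate 0% of 20381 genes were called by edgeR. Unadjusted p-values under 0.05 numbered 688 for Fear-Recall against Context-Only, 384 for Fear-Recall against Fear-Only and 514 for Fear-Only against Context-Only, and DESeq2 called 25, 7 and 18 genes. None of these were members, and 0 of 9 members had an unadjusted p under 0.05 with edgeR.

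Crebbp had 145.01, 261.3 and 104.5 CPM in the pos cells of Context-Only 2, 3 and 4. It had 262.1 and 344.9 in Fear-Only 2 and 3, and 247.5, 313.7 and 119.9 in Fear-Recall 2, 3 and 4. Fear-Only thus had no animal numbered 4 here. Over all gates Crebbp had means of 218.3, 291.8 and 144.4 CPM in animals numbered 2, 3 and 4. The fold changes given here come from fits without the mouse number. The log2 fold change of Fear-Only against Context-Only was 0.83 (SE 0.475, adjusted p = 1), the smallest p of the members. Crtc3 had 3.6, 7.0 and 3.2 CPM in Context-Only and 8.3 and 8.0 in Fear-Only, a log2 fold change of 0.82 (SE 0.546). For both genes the 2 Fear-Only animals were above the 3 Context-Only animals, Crebbp by less than 1 CPM, while in 13.9% of all genes tested these groups did not overlap. Fear-Recall against Context-Only gave 0.42 for Crebbp (SE 0.431) and 0.45 for Crtc3 (SE 0.495), with overlapping groups. Fear-Recall against Fear-Only gave -0.42 for Crebbp (SE 0.477) and -0.20 for Crtc1 (SE 0.266). The comparisons share animals, so their values do not support each other.

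Crem, which differed with the reporter, had 85.3, 92.6 and 63.2 CPM in the pos cells of Context-Only, 81.5 and 67.3 in Fear-Only, and 69.6, 85.5 and 67.5 in Fear-Recall. The 3 conditions overlapped. Creb1 ran from 14.9 to 24.03 in Context-Only, 17.1 to 17.3 in Fear-Only and 15.1 to 22.1 in Fear-Recall.

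Over all gates 0% of 19698 genes were called by edgeR. Unadjusted p-values under 0.05 numbered 1745 for Fear-Recall, 1330 for Fear-Only and 964 for Context-Only against Homecage, and 702 for Fear-Recall against Context-Only. DESeq2 called 87, 92, 73 and 6 genes, none of them members. Sik1 had the smallest p with Fear-Recall, at -1.20 against Homecage (SE 0.607, unadjusted p = 0.061) and -1.08 against Context-Only (SE 0.579, unadjusted p = 0.078). Its values were 2.8, 5.1, 7.2, 6.3 and 2.4 CPM in Fear-Recall, 6.5, 7.5, 9.5, 14.7 and 11.9 in Context-Only and 2.6, 8.2, 6.3 and 26.8 in Homecage. Fear-Only had 19.4, 6.7, 1.8, 6.1 and 7.0 CPM. The Fear-Recall animals lie in the lower part of the range, and Fear-Recall 3 is above the lowest Context-Only animal.

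Inhibitory neurons were 28.2% ± 2.66 of Fear-Recall cells (SD, n = 5), 35.8% ± 5.86 of Context-Only and 38.3% ± 9.12 of Homecage cells (n = 4), and the sums mix gates in different parts. In excitatory neurons alone Sik1 had a log2 fold change of 0.29 for Fear-Recall against Homecage, the opposite sign. In Vip-like neurons Sik1 ran from 6.28 to 21.8 CPM in Fear-Recall and 15.1 to 56.6 in Context-Only (without TMM scaling). It ran from 5.54 to 18.7 in Fear-Only and was 14.6 and 113.8 in Homecage 3 and 5. The part of the inhibitory share in the Sik1 fold changes was not tested. The other members of smallest p were Crtc1 (-0.39, SE 0.221) for Fear-Recall against Homecage and Crebbp (0.34, SE 0.314) for Fear-Recall against Context-Only. Against Homecage, Fear-Only gave 0.37 for Crtc2 (SE 0.366) and -0.19 for Crtc1, and Context-Only gave -0.22 for Crtc1 and -0.32 for Crebbp. Homecage 4, with 17 cells, had 59.7 CPM of Creb1, while the other 3 Homecage animals had 16 to 17.

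**Figure D4:**
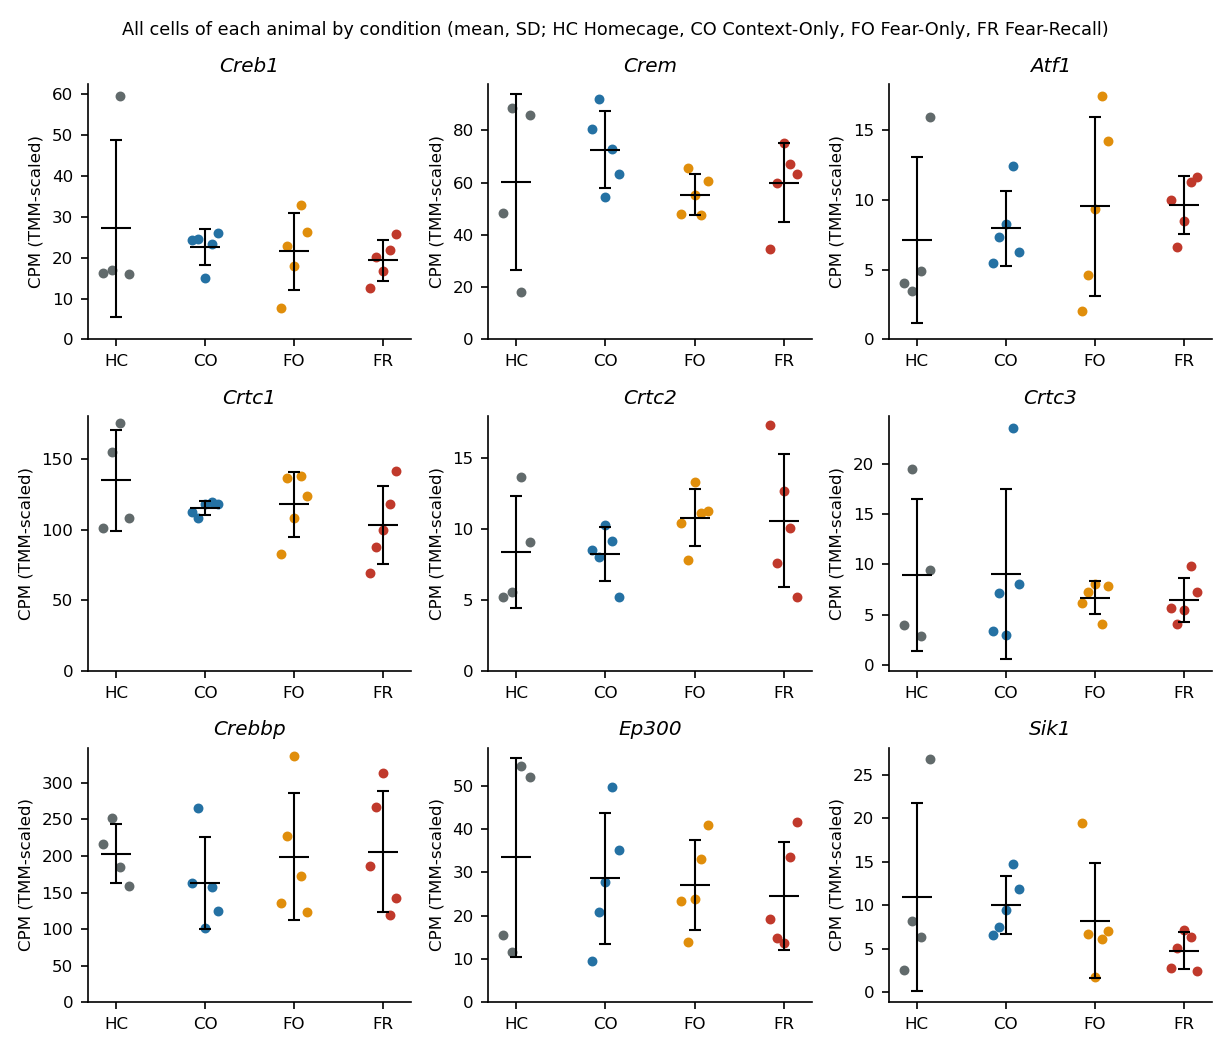
TMM-scaled CPM of each of the 9 genes over all cells of an animal (points, 19 animals) by condition, with mean and SD. The conditions overlap for every gene, and the Fear-Recall values of Sik1 (2.4 to 7.2) lie in the lower part of its range.

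Several members differed by mouse number, a pattern picked out after its values were seen. Ep300 had 27.7 to 54.6 CPM in the 9 animals numbered 4 or 5 and 9.64 to 23.9 CPM in the 10 animals numbered 1 to 3, with no overlap. These number groups did not overlap in 1.29% of 19698 genes. Crebbp had 101.6 to 184.8 CPM in animals numbered 4 or 5 and 162.4 to 336 in those numbered 2 or 3. Those ranges overlap between 162.4 and 184.8 CPM, and the 2 animals numbered 1 had 135.3 and 185.8 CPM. Means of animals numbered 4 or 5 and 1 to 3 were 27.4 and 18.02 CPM for Creb1 and 11.4 and 6.14 CPM for Atf1, with overlapping ranges. The labels do not say what a shared number marks. Numbers run across the conditions, and with the number as a block 0 of 9 members passed in the condition comparisons.

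The surrounding pathway was read from lists of genes named by function. These lists were chosen with earlier results of these data known, so their counts and medians are a description. Between the gates, 0 of 28 genes of upstream kinases and their regulatory subunits passed with edgeR, 21 of them below 0 (median -0.18). Akt1, a kinase of growth factor signalling, was among those of smallest p (-0.27). Among 10 phosphatase genes 0 passed, with the calcineurin subunits Ppp3cc (-0.69) and Ppp3r1 (-0.38) first. Of 31 genes of cAMP synthesis, breakdown and anchoring 0 passed, led by the phosphodiesterase Pde7b (0.92) and the adenylyl cyclase Adcy7 (1.39). Of 17 kinases related to Sik1 or upstream of it 0 passed, with Strada at -0.67 and Nuak2 at 3.49. Other CREB/ATF factors had 0 of 22, with Nfil3 at 0.47 and Atf7 at -0.54, and other acetylation regulators 0 of 21, with Hdac2 at -0.57 and Kat2b at 2.21.

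Of the CREB target genes, 2 of 40 rose between the gates (0.259% of all genes rose), Vip (1.80, SE 0.246) and Scg2 (0.995, SE 0.136), which encode a neuropeptide and the granule protein secretogranin II (edgeR adjusted p = 0.0172 for both). Of the 40, 30 were above 0, and the median was 0.51 beside 0.02 over all genes. Vip marks a neuron group that was more frequent in the pos gate, as given above, and the part of this in the list was not tested. With animals left out, the adjusted p reached 0.0796 for Vip and 0.0706 for Scg2. In excitatory neurons alone 32 of 39 target genes were above 0 (median 0.54 beside 0.01). Egr1, an early response factor, rose there (0.70, SE 0.089, edgeR adjusted p = 0.0346) and Nr4a1, an orphan nuclear receptor, had 0.86 (adjusted p = 0.111). Egr1 lost its call in 7 of the 8 fits without an animal.

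With the reporter 10 of 38 target genes rose and none fell (1.02% of all genes rose and 1.22% fell), with 34 above 0 and a median of 0.40 beside -0.03 over all genes. Since the list was chosen with earlier results of these data known, these shares do not test a response of CREB targets. Nr4a1 (0.66, SE 0.090, edgeR adjusted p = 0.00261) and Vgf, a secreted neuronal protein (0.93, SE 0.137, adjusted p = 0.00403), had the smallest p. The others were Egr1, Egr2, Gadd45b, Junb, Nfil3, Nr4a2, Per1 and Rgs4, from 0.34 for Egr1 to 1.02 for Nr4a2. Of these 10, promoters were matched for 8, and 7 of them held the core motif and 0 the 8-base element. In the whole target list the shares were 80.6% and 19.4% of 31 genes, so the core does not set these 8 apart. Of the genes of upstream kinases and their regulatory subunits 2 of 28 rose. They were the kinase Camk1g (0.52, adjusted p = 0.00887) and Prkar1b, a regulatory and not a catalytic subunit of protein kinase A (0.39, adjusted p = 0.0319).

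In the same comparison the phosphatase Ppp2ca rose (0.20, adjusted p = 0.0415) and Ppp1cc did not pass (0.26), which made 1 of 10. The cAMP genes had 0 of 30, with Adcy2 at -0.48 and Akap9 at -0.31, and the Sik1-related kinases 0 of 16, with Nuak1 at -0.44 and Mark2 at 0.39. Nfil3 (0.84, adjusted p = 0.00837) and Atf4 (0.28, adjusted p = 0.0113) rose among 22 other CREB/ATF factors. Of 21 acetylation regulators the acetyltransferase Kat6b fell by 0.41 (adjusted p = 0.0437). Nfil3 is in both the factor and the target list. For Fear-Recall against Context-Only in the pos gate 0 of 40 target genes passed, with Arc at 1.32 (SE 0.414) and Dusp1 at 0.87 (SE 0.373), both with an adjusted p of 0.970.

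The genes most like a member were read across 19 sums of excitatory neurons, over 8472 genes with a mean of at least 10 CPM. Atf1, Crtc3 and Sik1 were below that mean and were not read. As a description, Pearson's r of log2(CPM + 1) was highest with Dopey1 (0.887) and Btbd3 (0.874) for Creb1, and with Cyr61 (0.884) and Adprm (0.882) for Crem. Crtc1 was most like Mrpl45 (0.870) and Pak1ip1 (0.850), and Crtc2 most like Nab2 (0.785) and Bmpr2 (0.746). Crebbp was most like Lzts1 (0.933) and Inafm2 (0.895), and Ep300 most like Xiap (0.931) and Socs5 (0.899). The sums share animals' depth and mouse numbers, and none of the 12 genes named is a member.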

How the data were processed

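Messenger RNA was measured in single cells by Smart-seq2, and each cell is a sample of its own. The values are read counts per gene and cell, as deposited by the authors, not normalised. Per the submitters' processing notes, Bowtie 0.12.2 was used and builds mm10 and mm8 are listed, with no role for either. The sources used here do not say how reads were assigned to genes, or whether by strand. All values were whole, and 0 pairs of cells were identical.

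The reporter was left out, which leaves 23354 genes. Clusters came from scanpy 1.11.5 on scaled, logged counts (the 9 members excluded, then 2000 variable genes, 30 components, 15 neighbours and Leiden with leidenalg 0.10.2 at a resolution of 1). No cell was removed, and no doublet caller was run, since cells were sorted singly onto plates. Clusters were named from marker lists, as "like" a type. The 2 clusters of fewest genes per cell are called low-gene clusters. For each animal, or its gate, class or reporter status, the counts of at least 10 cells were added up. Sums held 12 to 521 cells.

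Sums were tested over all genes with edgeR 4.0.16 under R 4.3.3 by the quasi-likelihood test with TMM scaling and Benjamini-Hochberg adjustment at 0.05. Genes were kept by filterByExpr (count of at least 10, total of at least 15). The animal was a block where both arms came from the same animals. DESeq2 1.42.0 was an alternative, along with RLE size factors, no filter, cells thinned to 100000 reads, no low-gene clusters, single classes, left-out animals and the block. The restriction of the reporter comparison to a class or to some animals was chosen after seeing the data. The scripts were tested on simulated data. CPM carries TMM scaling unless said otherwise, and a log2 ratio of an animal's levels adds 1 CPM to each. Shares of cells cover counting error only.

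Same-numbered animals of different conditions deviated together: the correlation of deviations was 0.193 to 0.683 over 28 pairs (all gates) and 0.102 to 0.740 over 7 pairs (pos gate), so the number counts as a pairing. That animals are separate comes from their numbers. In the condition comparisons p-values measure the spread between these animals. With the animal as a block they measure how the differences within animals vary from animal to animal. Sums of bulk kind cannot tell fewer cells with a gene from less RNA per cell.

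The members, lists and comparisons were chosen with earlier results of these data known. All 9 members are named in the gate and class comparisons, elsewhere those past the threshold and the 2 of smallest p, and from each list the 2 of smallest p, except for items that are not reported here. Sequences and promoters are from RefSeq (GRCm38.p6), gene positions from GENCODE vM21 by symbol.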

Additional observations from a re-analysis of the deposited data

Results flagged for a closer look

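In 63 groups of 4 to 10 animals tested for a value standing apart (Dixon's criterion), 3 did so, and chance gives about 1 in 20. Creb1 in Context-Only 4 had a log2(CPM + 1) of 4.002 (15.02 CPM), with the other 4 Context-Only animals at 4.60 to 4.76. Creb1 in Homecage 4 had 5.92 (59.7 CPM), with the other 3 Homecage animals at 4.09 to 4.17, and its sum holds 17 cells. The log2 ratio of Ep300 between the pos and neg gate in inhibitory neurons was 0.99 in Fear-Recall 3, with the other 6 animals at -1.25 to -0.48.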

How the results depend on the processing

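Of 1404 alternative values of 72 fold changes, 1271 kept their direction and their side of the threshold, 97 lost a call, 25 gained one and 11 changed sign. The sign held everywhere for 64 of the 72. Between neuron classes 2 members were called in all settings run, and Atf1 was added with DESeq2 or without Fear-Recall 5. Members called between the gates numbered 0 with edgeR and 1 with DESeq2, over all neurons and in excitatory neurons alike. With the reporter 1 member was called, against 2 with DESeq2 and 0 with no replicate block, in excitatory cells only, in inhibitory cells only, in animals without a named gate and in cells of the pos and neg gates only. With an animal left out the number ran from 0 to 1, and it was 0 without Fear-Only 2 or Homecage 5. The restricted fits hold fewer cells, and otherwise the cause was not tested. In the condition comparisons the mouse number as a replicate block left 0 of 9 members and 0 genes called, as without it, and it changed no other call.

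Between the gates Crtc3 (-0.04) had 0.0805 with cells thinned and 0.0432 without the low-gene clusters, and -0.13 to 0.11 with an animal left out (0.06 without Fear-Recall 2, 0.11 without Homecage 2). Atf1 (-0.14) had -0.40 to 0.12 with an animal left out, the last without Homecage 2, and Ep300 (-0.11) had 0.0755 without the low-gene clusters. In the pos gate Crtc3 of Fear-Recall against Context-Only (0.45) ran from -0.0353 (without Fear-Recall 4) to 0.88. Against Homecage, Sik1 in Fear-Recall had 0.29 and Crtc2 in Fear-Only -0.21 in excitatory cells only, while Crtc1 had 0.36 in Fear-Only and 0.16 in Context-Only in inhibitory cells only.

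Shares of all genes that were called moved more. Between the gates the share was 0.287%, against 3.63% with DESeq2, 0.947% with cells thinned, 0.193% without a filter, 0.107% without the block, 0.0735% without the low-gene clusters and 0.00567% to 0.178% with any of the 8 animals left out. In excitatory neurons it was 0.0358%, against 1.43% with DESeq2, 0% without the block and 0% to 0.0471% with an animal left out. With the reporter it was 2.24%, against 6.18% with DESeq2, 5.82% thinned, 0.951% without a filter, 0.563% without the low-gene clusters, 1.09% and 0.0152% in excitatory and inhibitory cells, 0.644% to 3.75% with an animal left out, and 0% in the other restricted fits or without the block. In the comparison of gate differences between classes it was 0%, against 0.0335% without the block and 0.81% with DESeq2, which moved the median of all genes by 0.11.

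Depth was lowest for Sik1, Crtc2, Crtc3 and Atf1, with 23543 to 32769 reads over all cells, and its part in the error of their fold changes was not tested.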
